A study of Rattus norvegicus with 47 samples.

Results

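*Osmr* (ENSRNOG00000033192) and *Socs3* (ENSRNOG00000002946) are 2 of the 32545 genes counted in rat kidney cortex. They were taken by symbol, since the deposited comparison tables pair each of these symbols with 1 Ensembl identifier, and both passed the filter on low counts at each time. *Osmr* encodes the receptor chain that binds oncostatin M, and *Socs3* encodes an inhibitor of the signal that this receptor starts.

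Oncostatin M belongs to the interleukin-6 family of cytokines. Its receptor pairs with the shared chain gp130, encoded by *Il6st*, and the pair activates JAK kinases, which phosphorylate STAT3. STAT3 moves to the nucleus and induces, among others, *Socs3*, whose protein binds gp130 and the JAK kinases and shuts the signal down, so *Socs3* mRNA is widely used as a readout of recent STAT3 activity. In the kidney this family is known from tubular cells and fibroblasts in injury and repair.

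Polyadenylated RNA was sequenced from the kidney cortex of male Wistar rats in 3 studies that lasted 14 days, 28 days or 6 months. Control rats ate plain chow, lithium rats ate chow with lithium carbonate (60 mM by the labels), and lithium-amiloride rats had the same diet while drinking water with 0.2 mM amiloride, which blocks epithelial sodium channels. Amiloride was given from the first day in the 14-day and 28-day studies and was added to running lithium treatment in the 6-month study. The comparisons ask how lithium changed the cortex and whether amiloride given with it altered that change.

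There were 47 libraries, of which 44 were used here as in the deposited comparison tables. The 3 left out were lithium-amiloride 2 at 14 days and the libraries labelled lithium 4 and lithium-amiloride 4 at 6 months. This left 6 control, 6 lithium and 5 lithium-amiloride libraries at 14 days, the same numbers at 28 days, and 4, 3 and 3 libraries labelled control, lithium and lithium-amiloride at 6 months. A library held between 10399818 and 15618395 counts in the 14-day study, between 14779709 and 17554304 in the 28-day study and between 21245870 and 25415685 in the 6-month study. No source names the animal behind each library, so the tests measure the spread between libraries.

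The labels of the 6-month libraries disagree with the authors' own comparison tables. The fold changes in those tables come back from the counts under another reading, in which the label control stands for lithium, the label lithium for lithium-amiloride and the label lithium-amiloride for control. The summed level of 4 principal cell genes (*Aqp2*, *Aqp3*, *Avpr2* and *Scnn1g*), which lithium is known to lower, was 82.0 to 119 CPM (counts per 1000000 counts) in the libraries labelled control and 265 to 367 CPM in those labelled lithium-amiloride. It was 172 to 207 CPM in those labelled lithium. At 14 days the same sum was 270 to 347 CPM in control, 45.7 to 92.3 CPM in lithium and 194 to 248 CPM in lithium-amiloride libraries. Because labels and tables disagree, the 6-month groups are called by their labels below, with the reading of the tables beside them.

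The 250 bases before the start of *Osmr* are shown because *Fos* and *Junb*, which encode subunits of the factor AP-1, rose at 14 days as *Osmr* did. Many other genes rose there too, and whether AP-1 acts on *Osmr* was not tested. The sequence is RefSeq's on build GRCr8, chr2:57688562-57688811, minus strand, while the authors counted reads on Rnor 6.0. The capitals mark the only match to TGANTCA, a loose form of the AP-1 motif in which N is any base, read on both strands. It starts 33 bases before the start of the gene. Its middle base is T, where the AP-1 consensus has C or G, so it is not a consensus site.
*Osmr* promoter: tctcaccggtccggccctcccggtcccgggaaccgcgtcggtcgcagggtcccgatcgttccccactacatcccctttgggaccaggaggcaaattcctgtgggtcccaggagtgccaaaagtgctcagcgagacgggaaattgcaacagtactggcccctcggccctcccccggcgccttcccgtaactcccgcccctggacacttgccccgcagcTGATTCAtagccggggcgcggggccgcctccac
Of 33469 rat windows of this length, 6.34% hold a match to this loose form. The STAT motif TTCNNNGAA has no match in the window, against 7.67% of the windows with a match. The window of *Socs3*, which had the larger fold change at 14 days, has no match to either motif and is not printed. A match is a description of letters only, and no match says only that these letters are not in the window.

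At 14 days both genes rose with lithium and fell when amiloride was added. *Osmr* was at 5.83 CPM in the lowest, 8.63 in the median and 10.8 in the highest of the 6 control libraries. In the 6 lithium libraries *Osmr* ranged from 14.0 to 22.8 CPM, with a median of 19.2. The 5 lithium-amiloride libraries gave 11.4, 13.1, 8.05, 11.3 and 14.2 CPM of *Osmr*. Every lithium library was above every control library, and 4 of the 5 lithium-amiloride libraries were below every lithium library. Mean levels of *Osmr* were 8.60 ± 1.71 CPM in control (SD, n = 6), 18.9 ± 2.98 CPM in lithium (n = 6) and 11.6 ± 2.33 CPM in lithium-amiloride (n = 5).

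*Socs3* had the larger fold changes at 14 days. It ranged from 0.783 to 1.80 CPM in control libraries, with a median of 1.05, and from 3.54 to 8.93 CPM in lithium libraries, with a median of 6.41. The lithium-amiloride libraries gave 2.59, 2.65, 1.66, 1.39 and 3.82 CPM of *Socs3*. Control and lithium libraries again did not overlap, and 1 lithium-amiloride library, the highest, reached into the lithium range. Mean levels of *Socs3* were 1.14 ± 0.361 CPM (SD, n = 6), 6.30 ± 2.02 CPM (n = 6) and 2.42 ± 0.959 CPM (n = 5) in control, lithium and lithium-amiloride. These levels rest on few reads, 11 to 23 per control library and 59 to 136 per lithium library.

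Genes were called when the adjusted p was under 0.05 (edgeR quasi-likelihood test, Benjamini-Hochberg over all genes tested) and the size of the log2 fold change was 0.5 or more. For lithium against control at 14 days the log2 fold change of *Osmr* was 1.13 (standard error 0.15, 2.19-fold, adjusted p = 1.87e-05) and that of *Socs3* was 2.46 (standard error 0.28, 5.51-fold, adjusted p = 3.55e-06). This comparison called 12.1% of the 14179 genes tested, and groups did not overlap for 11.9% of them. For lithium-amiloride against lithium the log2 fold changes were -0.70 (standard error 0.15, 1.63-fold lower, adjusted p = 0.0129) for *Osmr* and -1.37 (standard error 0.26, 2.59-fold lower, adjusted p = 0.00599) for *Socs3*, in a comparison that called 2.19% of genes. Both comparisons use the same lithium libraries. Each of these 4 calls held when any single library was left out.

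*Socs3* remained higher than control in lithium-amiloride rats. For lithium-amiloride against control at 14 days, where 8.32% of genes were called, the log2 fold change of *Socs3* was 1.09 (standard error 0.31, adjusted p = 0.0191). For *Osmr* it was 0.43 (standard error 0.16, adjusted p = 0.0683), with an interval of 0.12 to 0.73 over ±1.96 standard errors. The *Socs3* call was lost without lithium-amiloride 6, at 0.86 and adjusted p = 0.0698, and *Osmr* was called without control 1 or lithium-amiloride 4, at 0.50 to 0.54 and adjusted p = 0.0189 to 0.0401. In tissue RNA, fewer cells of a type and less RNA per cell cannot be told apart.

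**Figure D1:**
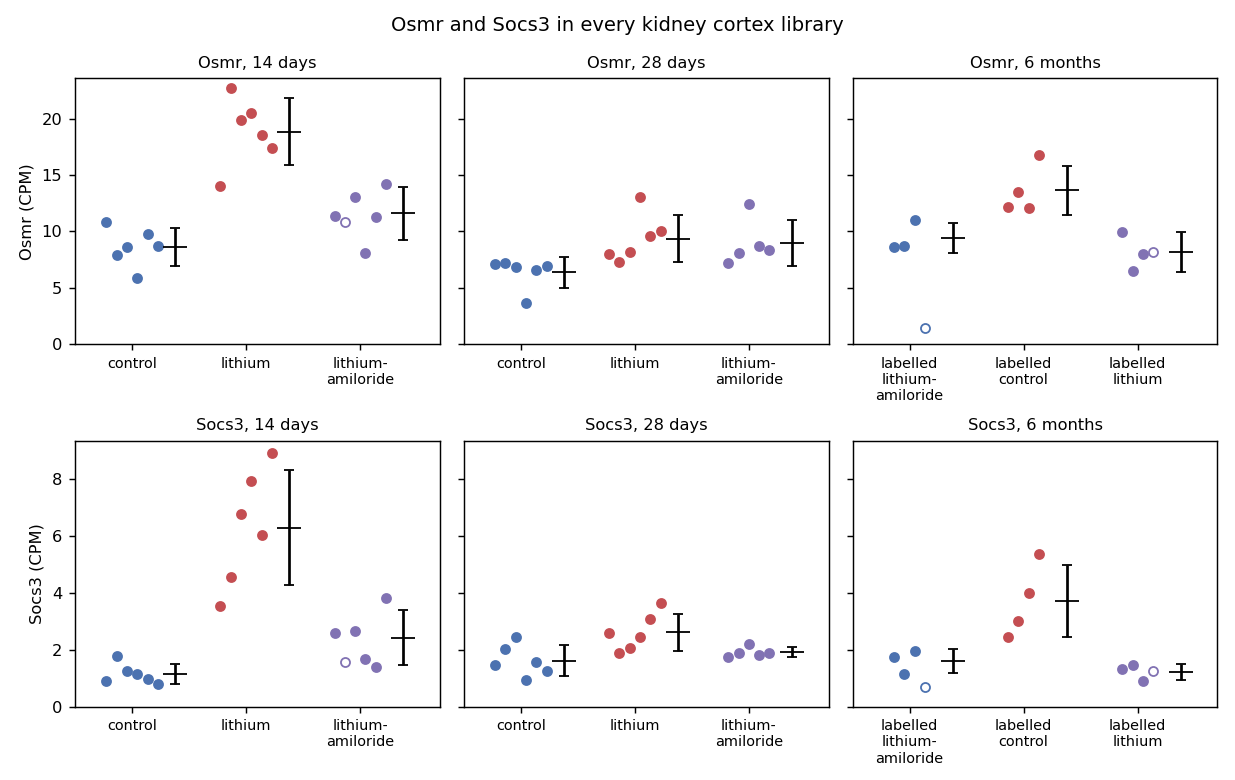
Levels of *Osmr* (upper row) and *Socs3* (lower row) in CPM (counts per 1000000 counts, linear axis from 0), 1 point a library, for the 3 studies. Open points are the 3 libraries left out, black marks are means and bars are SDs of the libraries used, and the 6-month groups carry their labels, coloured by the reading of the authors' tables. At 14 days the lithium libraries sit at 14.0 to 22.8 CPM of *Osmr* and 3.54 to 8.93 CPM of *Socs3*, above every control library.

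At 28 days both genes were again higher with lithium, by less, and neither was called between lithium-amiloride and lithium. *Osmr* ranged from 3.62 to 7.22 CPM in control, with a median of 6.92, and from 7.29 to 13.03 CPM in lithium, with a median of 8.89. The 5 lithium-amiloride libraries gave 7.18, 8.11, 12.5, 8.71 and 8.36 CPM of *Osmr*. Control and lithium libraries did not overlap, by a margin of 7.22 against 7.29 CPM, and the lithium-amiloride libraries overlapped with the lithium libraries over nearly their whole range and, in the lowest one, with control.

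*Socs3* at 28 days ranged from 0.943 to 2.46 CPM in control, with a median of 1.52, and from 1.87 to 3.63 CPM in lithium, with a median of 2.53. In the lithium-amiloride libraries *Socs3* was at 1.75, 1.89, 2.20, 1.83 and 1.88 CPM. The control and lithium ranges of *Socs3* overlapped, and the lithium-amiloride libraries lay within the control range. The spread among lithium-amiloride libraries was an SD of 0.172 CPM, against 0.650 CPM among lithium libraries.

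For lithium against control at 28 days the log2 fold change of *Osmr* was 0.56 (standard error 0.18, 1.47-fold, adjusted p = 0.0350) and that of *Socs3* was 0.71 (standard error 0.21, 1.63-fold, adjusted p = 0.0254), where 9.07% of 14140 genes were called and groups did not overlap for 5% of them. The *Osmr* call was lost without control 3, 4 or 5 or lithium 4 or 6 (0.44 to 0.58, adjusted p = 0.0518 to 0.0962) and the *Socs3* call without control 6 or lithium 6 (0.59 to 0.64, adjusted p = 0.0582 to 0.0629). With only the compared groups in the fit, *Osmr* was at adjusted p = 0.0505 and *Socs3* at 0.0574.

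Adding amiloride at 28 days gave a log2 fold change of -0.07 for *Osmr* (standard error 0.18, adjusted p = 0.902, interval -0.42 to 0.29) and of -0.46 for *Socs3* (standard error 0.21, adjusted p = 0.445, interval -0.87 to -0.04). That comparison called 0.438% of genes. For lithium-amiloride against control, where 16.6% of genes were called, the log2 fold change of *Osmr* was 0.49 (standard error 0.18, adjusted p = 0.0446), under the fold threshold, and that of *Socs3* was 0.25 (standard error 0.22, adjusted p = 0.389). *Osmr* passed that threshold without control 1, lithium-amiloride 1 or lithium-amiloride 2 (0.52 to 0.56, adjusted p = 0.0351 to 0.0491).

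The control libraries at 28 days differed from the others in composition. Mitochondrially encoded genes took a median of 31.9% of their counts, against 19.7% in lithium and 17.3% in lithium-amiloride libraries. Control 1 stood apart at 18.2%. Without control 1 the log2 fold changes for lithium against control were 0.59 for *Osmr* (adjusted p = 0.0261) and 0.68 for *Socs3* (adjusted p = 0.0307), and with library sizes that leave out the mitochondrial genes they were 0.55 and 0.70. Control 1 was the only control library within the range of the lithium libraries, 14.5 to 24.3%. The fit without it therefore cannot show the part of the mitochondrial share in the results. That part, and the part of the other differences, was not tested.

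At 6 months both genes were highest in the libraries labelled control, which the authors' tables read as lithium. *Osmr* was at 12.2, 13.5, 12.1 and 16.8 CPM in the 4 libraries labelled control. It was at 9.97, 6.44 and 8.03 CPM in the 3 labelled lithium (lithium-amiloride by the tables) and at 8.60, 8.67 and 10.98 CPM in the 3 labelled lithium-amiloride (control by the tables). The libraries labelled control were above all others used.

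*Socs3* had the same order of groups at 6 months. It was at 2.45, 3.02, 4.0 and 5.36 CPM in the libraries labelled control, at 1.32, 1.45 and 0.910 CPM in those labelled lithium and at 1.73, 1.15 and 1.95 CPM in those labelled lithium-amiloride. The first group overlapped neither of the others, while the libraries labelled lithium and lithium-amiloride overlapped for both genes.

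For labelled control against labelled lithium-amiloride (lithium against control by the tables) the log2 fold change was 0.55 for *Osmr* (standard error 0.17, adjusted p = 0.0488) and 1.22 for *Socs3* (standard error 0.30, adjusted p = 0.0204), where 7.54% of 14532 genes were called and groups did not overlap for 28.2% of them. For labelled lithium against labelled control (lithium-amiloride against lithium by the tables) it was -0.75 for *Osmr* (standard error 0.17, adjusted p = 0.0440) and -1.59 for *Socs3* (standard error 0.30, adjusted p = 0.0226), where 1.99% of genes were called and 15.9% did not overlap. Labelled lithium against labelled lithium-amiloride called neither gene, with -0.20 for *Osmr* (standard error 0.18, adjusted p = 0.501, interval -0.56 to 0.16) and -0.37 for *Socs3* (standard error 0.34, adjusted p = 0.495, interval -1.04 to 0.29), where 7.78% of genes were called. With the labels read as they stand, the same values say that both genes were lower in lithium than in control.

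These 6-month calls rest on few libraries. For labelled control against labelled lithium-amiloride, *Osmr* lost its call in 6 of 10 leave-outs (labelled lithium 3, labelled lithium-amiloride 1 and 2, and labelled control 2, 3 and 4, at 0.43 to 0.61 and adjusted p = 0.0515 to 0.170) and *Socs3* in 2 (labelled lithium-amiloride 1 and 2, at 1.01 to 1.27 and adjusted p = 0.0659 to 0.0785). For labelled lithium against labelled control, *Osmr* lost it in 7 (labelled lithium 2 and 3, labelled lithium-amiloride 1 and 2, and labelled control 2, 3 and 4, at -0.81 to -0.61 and adjusted p = 0.0572 to 0.178) and *Socs3* in 4 (labelled lithium 1, 2 and 3 and labelled control 3, at -1.74 to -1.42 and adjusted p = 0.0586 to 0.0969). With all 12 libraries in the fit, *Osmr* was at 0.88 (adjusted p = 0.179) and -0.75 (adjusted p = 0.630) in these comparisons. In the left-out library labelled lithium-amiloride 4, *Osmr* had 23 reads, or 1.46 CPM, below every other library of that time. In the libraries used, mitochondrially encoded genes took 16.5 to 24.3% of counts in labelled control. They took 18.6 to 25.1% in labelled lithium and 24.8 to 29.9% in labelled lithium-amiloride libraries. The part of this share in the 6-month calls was not tested.

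**Figure D2:**
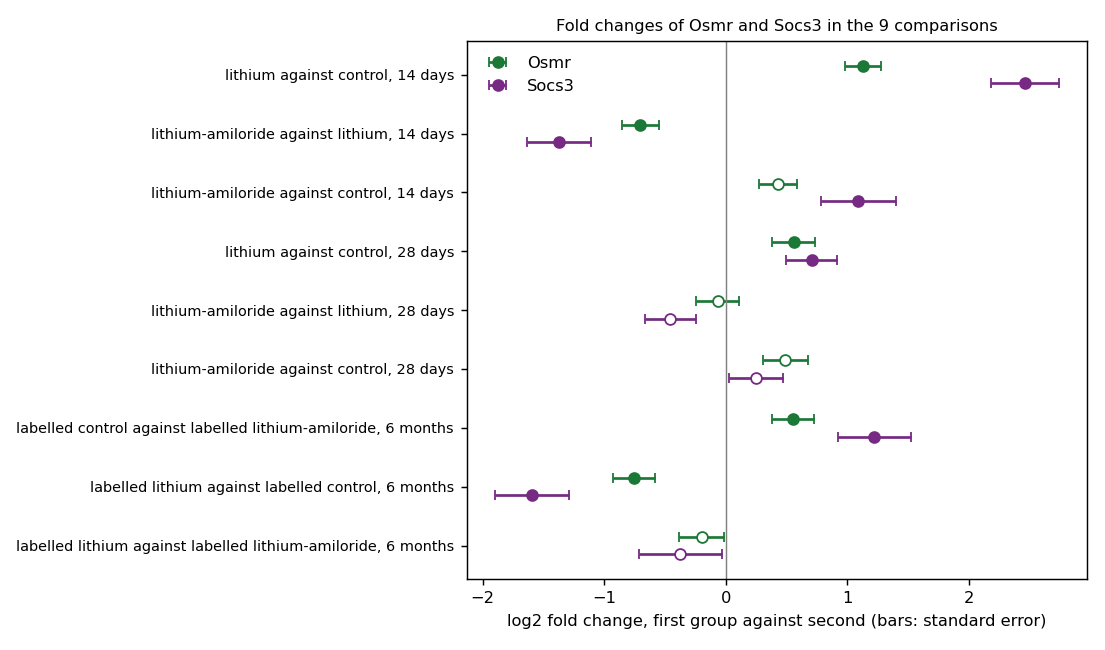
Log2 fold changes of *Osmr* and *Socs3* in the 9 comparisons, with bars of 1 standard error (edgeR). Filled points passed the adjusted p and fold thresholds and open points did not. Lithium against control at 14 days gives 1.13 for *Osmr* and 2.46 for *Socs3*, farther from 0 than in the other comparisons.

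The response of *Socs3* to lithium was smaller at 28 days than at 14 days. In 1 fit over the 3 studies the difference between the responses was -1.74 on the log2 scale for *Socs3* (standard error 0.36, adjusted p = 0.00386), in a contrast that called 4.23% of 15026 genes. For *Osmr* the difference was -0.55 (standard error 0.23, adjusted p = 0.120), and it was called without 28 days control 4 (-0.67, adjusted p = 0.0410). The response to added amiloride differed between these times by 0.63 for *Osmr* (standard error 0.24, adjusted p = 0.393) and 0.91 for *Socs3* (standard error 0.35, adjusted p = 0.406).

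With the 6-month groups read as in the tables, the lithium response at 6 months differed from that at 14 days by -0.57 for *Osmr* (standard error 0.26, adjusted p = 0.284) and -1.24 for *Socs3* (standard error 0.40, adjusted p = 0.119), where 0.965% of genes were called. The response to added amiloride differed by -0.05 for *Osmr* (standard error 0.26, interval -0.57 to 0.46) and -0.22 for *Socs3* (standard error 0.39, interval -0.99 to 0.55), where 0.0732% of genes were called. With the labels as they stand, the lithium response differed by -1.85 for *Osmr* (adjusted p = 3.20e-06) and -4.02 for *Socs3* (adjusted p = 3.73e-09), where 10.7% of genes were called, and the response to added amiloride by 0.89 (adjusted p = 0.0350) and 1.74 (adjusted p = 0.00603), where 7.04% were called. The last *Osmr* call was lost in 6 of 44 leave-outs (14 days lithium 2 and lithium-amiloride 4 and 5, labelled lithium 2 and 3 and labelled lithium-amiloride 3, at 0.78 to 0.88 and adjusted p up to 0.112). Each time is a separate study with its own rats, so time and study cannot be told apart.

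The ratio of *Socs3* to *Osmr* counts within a library needs no scaling between libraries. At 14 days its log2 was higher in lithium than in control by 1.30 (SDs 0.472 and 0.611, n = 6 and 6, two-sided exact permutation p = 0.00433, adjusted over the 9 comparisons p = 0.0390). The ranges of this ratio overlapped, and with 0.5 added to each count the adjusted p was 0.0584. Leaving out a library ended this call in 10 of 12 cases, all libraries of these groups except control 2 and lithium 2, with differences of 1.17 to 1.42 and adjusted p = 0.0584 to 0.0974. In the other 8 comparisons the ratio gave adjusted exact permutation p-values of 0.166 to 0.700.

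The pair was also compared library by library. Over the 44 libraries used, with the mean of each time subtracted from log2 CPM, Pearson's r between *Osmr* and *Socs3* was 0.81, a description that carries the group differences above. Within groups, after subtraction of the group mean, r was 0.25 at 14 days (n = 17, permutation p = 0.370), 0.61 at 28 days (n = 17, permutation p = 0.0179) and 0.41 at 6 months (n = 10, permutation p = 0.283). The adjusted permutation p over the 3 times was 0.0536 at 28 days and 0.370 at both other times. Spearman's rho was 0.18 (permutation p = 0.522), 0.46 (permutation p = 0.0734) and 0.22 (permutation p = 0.587).

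Without the 2 libraries farthest from the median of *Osmr*, r was 0.44 at 14 days, 0.53 at 28 days (permutation p = 0.00411) and 0.54 at 6 months. With the left-out libraries added, r at 6 months was 0.71 (n = 12, permutation p = 0.0308), and the library labelled lithium-amiloride 4 is the lowest of both genes there.

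**Figure D3:**
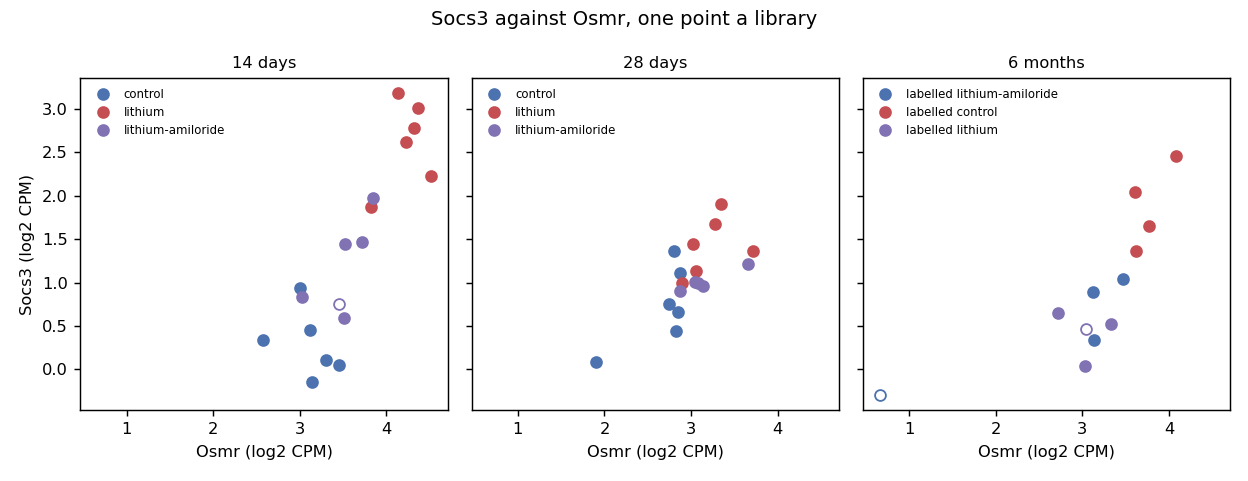
Log2 CPM of *Socs3* against log2 CPM of *Osmr*, 1 point a library, in the 3 studies. Open points are libraries left out, and 6-month groups carry their labels. The 14-day lithium libraries lie at the upper right, and within groups r was 0.25, 0.61 and 0.41.

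Other genes of the pathway were followed in a list of 71 genes, of which 51 could be paired with an identifier, 49 besides *Osmr* and *Socs3*. Symbols come from the authors' tables, which list only genes that passed their test in some comparison, so every gene named had passed that test somewhere in these libraries. The list was also chosen with earlier results of these data known, so its counts are a description. At 14 days 21 of the 48 tested rose with lithium and 0 fell, with a median log2 fold change of 0.44 against 0.00 over all genes tested. Of the genes with a symbol 12.6% were called higher there. With amiloride added, 14 of the 48 fell and 0 rose, with a median of -0.37 against -0.01, where 2.17% of genes with a symbol were called lower. At 28 days 7 of 47 rose and 2 fell with lithium, where 8.3% and 5.46% of genes with a symbol did, and 1 fell with amiloride added, where 0.159% did. For labelled control against labelled lithium-amiloride at 6 months 8 of 48 were higher, against 8.2% of genes with a symbol, and for labelled lithium against labelled control 4 were lower, against 0.955%.

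Among the ligands, *Lif* rose with lithium. Its product, leukaemia inhibitory factor, signals through gp130 and the LIF receptor. At 14 days *Lif* was at 0.845 to 1.25 CPM in control, 3.24 to 7.42 CPM in lithium and 2.54 to 4.53 CPM in lithium-amiloride libraries. The log2 fold change of *Lif* was 2.30 in lithium (standard error 0.21, adjusted p = 2.98e-07) and 1.62 in lithium-amiloride (standard error 0.23, adjusted p = 5.55e-05), both against control.

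With amiloride added at 14 days 1 of the 4 ligands tested was called, *Clcf1*, which encodes a cytokine of the same family and fell by 0.87 (standard error 0.17, adjusted p = 0.00591). *Clcf1* had 0.43 with lithium against control (standard error 0.16, adjusted p = 0.0485), under the fold threshold. *Lif* was not called between lithium-amiloride and lithium in either short study. Its log2 fold change there was -0.68 at 14 days (standard error 0.19, adjusted p = 0.0588) and 0.32 at 28 days (standard error 0.20, adjusted p = 0.545). At 28 days *Lif* was higher than control by 1.22 in lithium (adjusted p = 0.00118) and by 1.54 in lithium-amiloride (adjusted p = 9.87e-05). At 6 months it was higher in the libraries labelled control than in those labelled lithium-amiloride by 0.76 (adjusted p = 0.0469), a call lost in 9 of 10 leave-outs (all but labelled control 1) at 0.57 to 0.86 and adjusted p = 0.0523 to 0.178. *Osm*, *Il6*, *Il11* and *Il31* were not analysed here.

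At 14 days the log2 fold changes of the other receptor chains named here were smaller than that of *Osmr*, a difference that was not tested. *Il6st*, which encodes gp130, was at 0.47 on the log2 scale with lithium at 14 days (standard error 0.11, adjusted p = 0.00383), under the fold threshold, and 0.39 at 28 days (standard error 0.10, adjusted p = 0.0116). It passed the fold threshold at 14 days without control 6 or lithium 1 (0.51 to 0.55, adjusted p = 0.000330 to 0.00291). *Il6r*, the interleukin-6 receptor, rose by 0.72 at 14 days (standard error 0.13, adjusted p = 0.000581). *Lifr*, the LIF receptor, was at 0.12 at 14 days (adjusted p = 0.681) and rose at 28 days by 0.66 with lithium (standard error 0.18, adjusted p = 0.0172) and by 0.90 with lithium-amiloride (standard error 0.19, adjusted p = 0.00173).

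Of the 7 kinases and STAT factors tested, 2 rose with lithium at 14 days and none was called at 28 days or 6 months. *Stat3* rose by 0.57 (standard error 0.07, adjusted p = 8.36e-06) and *Jak3*, a kinase used by cytokine receptors of lymphocytes, by 0.71 (standard error 0.10, adjusted p = 4.59e-05). With amiloride added at 14 days, 1 of the 7 was called, *Jak3*, which fell by 0.56 (standard error 0.11, adjusted p = 0.00552), and *Stat3* was at -0.26 (standard error 0.07, adjusted p = 0.0570). *Jak1*, a kinase that gp130 uses, was at 0.11 with lithium at 14 days (standard error 0.05, adjusted p = 0.107). *Jak2* and the *Stat5* genes were not analysed here.

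None of the 7 inhibitors tested besides *Socs3* was called with lithium at 14 days, where *Socs1* had 0.31 (standard error 0.21, adjusted p = 0.295) and *Socs2* -0.10 (standard error 0.15, adjusted p = 0.678). At 28 days *Socs1*, an inhibitor best known from interferon signalling, fell by 0.90 in lithium (standard error 0.24, adjusted p = 0.0162) and by 0.73 in lithium-amiloride (standard error 0.25, adjusted p = 0.0301), the latter lost without control 2 or 6 or lithium-amiloride 3 or 5 (adjusted p up to 0.0802). *Socs2*, known for restraining growth hormone signalling, fell by 0.82 in lithium (standard error 0.16, adjusted p = 0.00222) and by 1.0 in lithium-amiloride (standard error 0.17, adjusted p = 0.000382), while *Socs3* rose with lithium in the same libraries. *Cish* was not analysed here.

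The known targets carried most of the calls, 17 of 25 at 14 days. The 5 with the smallest adjusted p were *Tnfrsf12a*, the receptor of the cytokine TWEAK, at 1.81 (standard error 0.11, adjusted p = 1.82e-09), *Fos*, a subunit of AP-1, at 3.47 (0.26, 1.69e-08), *Birc3*, an inhibitor of apoptosis, at 1.32 (0.14, 2.20e-06), *Timp1*, an inhibitor of matrix metalloproteinases, at 1.10 (0.14, 1.03e-05), and *Lcn2*, the tubular injury marker lipocalin 2, at 1.86 (0.23, 1.08e-05). *Junb*, *Myc*, *Bcl3* and the fibrinogen genes *Fga*, *Fgb* and *Fgg* were also called higher. With amiloride added, 12 of 25 targets fell. The 5 with the smallest adjusted p were *Timp1* at -1.02, *Spp1*, which encodes osteopontin, at -2.31, *Bcl3* at -1.17, *Lcn2* at -1.56 and *Fga* at -1.08 (adjusted p = 0.000385 to 0.00154). *Tnfrsf12a* and *Birc3* were not among those that fell.

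In lithium-amiloride against control at 14 days only *Lif*, *Tnfrsf12a* (1.49), *Fos* (2.34) and *Birc3* (0.84) of the list were called, all higher, where 7.58% of genes with a symbol were called higher. At 28 days 5 of 24 targets rose with lithium, *Tnfrsf12a* by 0.99, *Fga* by 0.82, *Spp1* by 1.02, *Bcl6* by 1.38 and *Fgb* by 0.99, and *Fga* was the only one called with amiloride added, at -0.72 (standard error 0.14, adjusted p = 0.0193). The call of *Bcl6* was lost without control 2, 3, 4 or 5 or lithium 1 or 3 (adjusted p up to 0.0660), that of *Fgb* without any of 8 libraries (control 2, 4, 5 or 6 or lithium 3, 4, 5 or 6, adjusted p up to 0.125), and that of *Fga* with amiloride without lithium 6 or lithium-amiloride 1, 3 or 4 at adjusted p up to 0.0681. In lithium-amiloride against control at 28 days 6 genes of the list rose and 6 fell, where 14.6% and 10.1% of genes with a symbol did. The targets among them included *Tnfrsf12a* at 1.20, *Bcl6* at 1.27, *Birc3* at 0.55, *Timp1* at -0.66 and *Lbp*, the lipopolysaccharide binding protein, at -0.61, and all of these but *Tnfrsf12a* lost their call in 2 to 8 leave-outs (adjusted p up to 0.0930).

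At 6 months 7 of 24 targets were higher in labelled control than in labelled lithium-amiloride. They included *Tnfrsf12a* at 0.84, *Fga* at 0.83, *Lcn2* at 1.86, *Fos* at 2.31 and *Spp1* at 1.53. The 4 lower in labelled lithium than in labelled control were *Timp1* at -0.82, *Fga* at -0.80, *Lcn2* at -1.69 and *Hgf*, the hepatocyte growth factor, at -0.63. In labelled lithium against labelled lithium-amiloride, *Tnfrsf12a* was higher by 1.13 and *Hgf* and *Timp1* were lower, at -0.66 and -0.60, where 8.98% and 3.02% of genes with a symbol were called higher and lower. Without single libraries the comparison of labelled control with labelled lithium-amiloride lost its calls of *Lcn2* (labelled lithium-amiloride 1, adjusted p = 0.0525) and *Fos* (labelled lithium-amiloride 2 or 3 or labelled control 2, adjusted p up to 0.0780), and each of the 4 calls for labelled lithium against labelled control was lost without labelled lithium 2 (adjusted p up to 0.191 over all leave-outs).

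**Figure D4:**
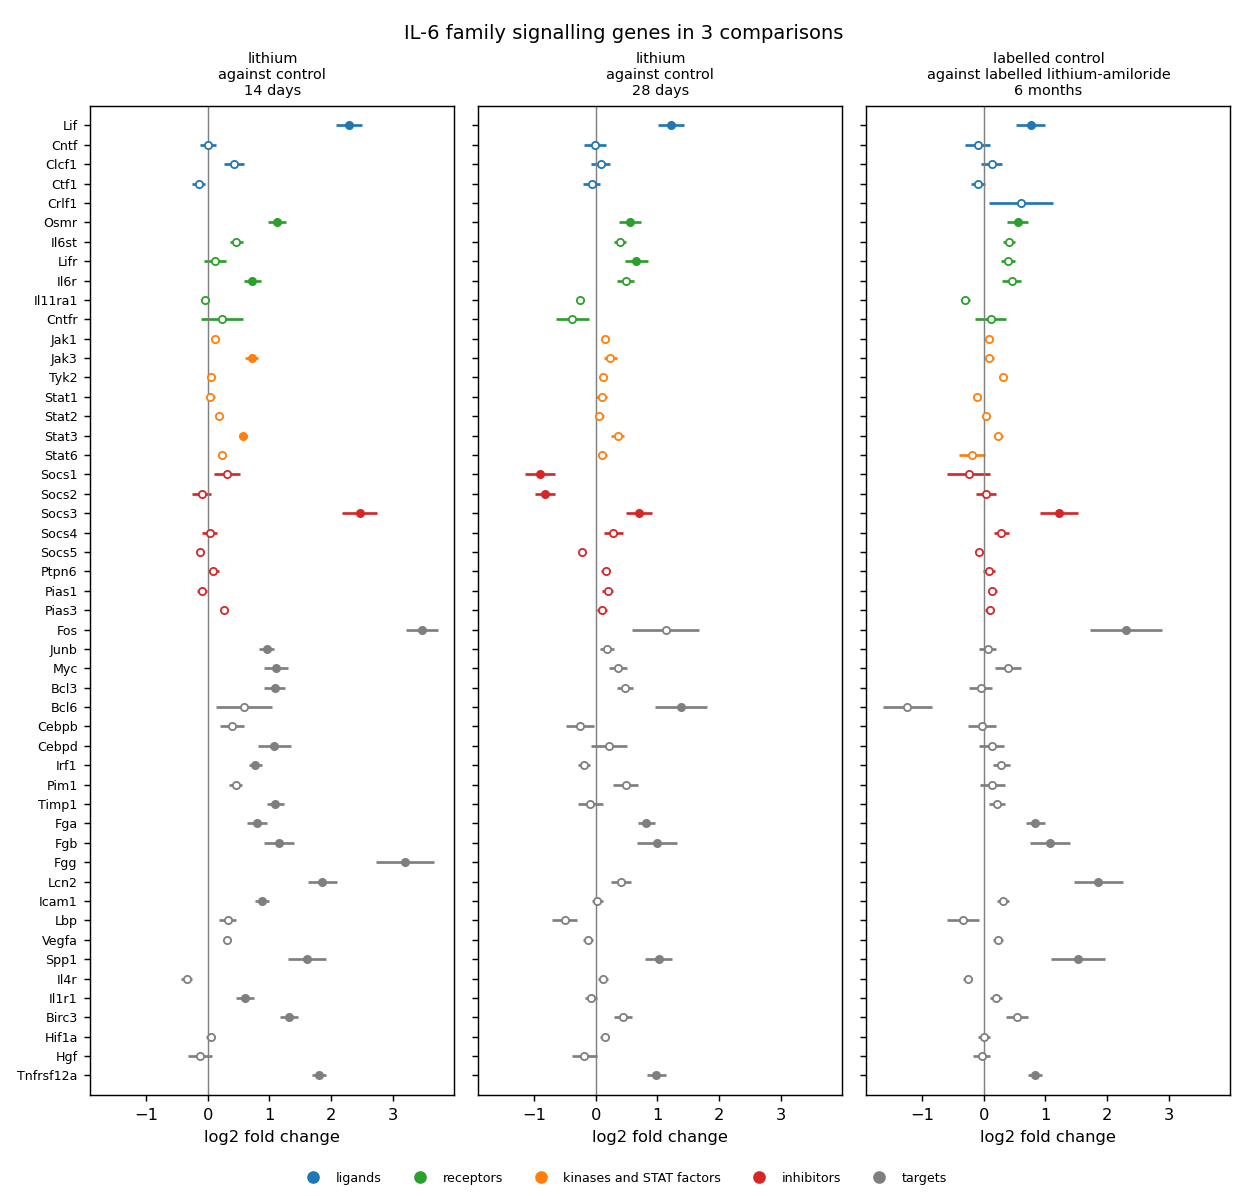
Log2 fold changes (points) and standard errors (bars) of tested genes of the interleukin-6 family pathway, grouped by role and without 1 target, in lithium against control at 14 and 28 days and in the 6-month comparison of libraries labelled control with those labelled lithium-amiloride (lithium against control by the authors' tables). Filled points were called. *Osmr*, *Socs3* and *Lif* were called higher in each panel, and *Socs1* and *Socs2* were called lower in the 28-day panel.

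The genes whose levels were most like those of *Osmr* over the 44 libraries, out of 15025, by Pearson's r on log2 CPM with the mean of each time subtracted, were *B4galnt4* (0.81), a glycosyltransferase gene, *Socs3* (0.81), *Rnf31* (0.80), which encodes a subunit of the linear ubiquitin ligase complex, *Adam8* (0.79), a metalloproteinase of leukocytes, and *Mmp14* (0.79), a membrane metalloproteinase. For *Socs3* they were *Rgs16* (0.87), a regulator of G protein signalling, *Upp1* (0.86), a uridine phosphorylase, *Pla1a* (0.85), a phospholipase, *Lcn2* (0.84) and *Gprc5a* (0.84), an orphan receptor, and *Osmr* held rank 18. *Il6st* held rank 32 and *Lif* rank 21 for *Osmr*. These coefficients carry the group differences shared by all genes that respond to lithium. With group means subtracted instead, r between *Osmr* and *Socs3* was 0.40 and their ranks for each other were 738 and 663. With the 3 left-out libraries added, *Socs3* held rank 129 for *Osmr* and none of the 5 genes above remained among its nearest 5.

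Of these neighbours, all but *Rnf31* (0.34) rose with lithium at 14 days, from *Mmp14* at 0.63 to *Adam8* at 2.43, and *B4galnt4* (-1.49), *Adam8* (-0.96), *Rgs16* (-0.95), *Upp1* (-0.65), *Pla1a* (-0.80), *Lcn2* (-1.56) and *Gprc5a* (-1.74) fell with amiloride added. The *Rgs16* call was lost without lithium 4, 5 or 6 or lithium-amiloride 1, 3, 4 or 5, at adjusted p up to 0.0898. They were chosen by likeness in these libraries, so their changes are a description.

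T cell markers were higher in lithium than in control libraries at 14 days, as the pair was. The summed level of 5 of 5 T cell genes (*Cd3d*, *Cd3e*, *Cd3g*, *Cd2* and *Cd8a*) at 14 days was 3.38 to 7.05 CPM in control, 8.72 to 18.8 CPM in lithium and 5.17 to 9.59 CPM in lithium-amiloride libraries. At 28 days it was 4.24 to 5.52, 5.22 to 10.6 and 4.71 to 9.27 CPM, and at 6 months 6.51 to 9.58 CPM in labelled lithium-amiloride, 6.20 to 12.04 CPM in labelled control and 5.71 to 7.74 CPM in labelled lithium libraries. The T cell sum overlapped between lithium and control at 28 days only through lithium 3, at 5.22 CPM. There *Socs3* overlapped, and *Osmr* did not by a margin of 7.22 against 7.29 CPM. At 6 months the T cell sum overlapped between labelled control and labelled lithium-amiloride, where neither *Osmr* nor *Socs3* did.

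Macrophage genes (4 of 5: *Cd68*, *Adgre1*, *Csf1r* and *C1qa*) summed at 14 days to 60.3 to 107 CPM in control, 95.6 to 143 CPM in lithium and 88.9 to 108 CPM in lithium-amiloride libraries. At 28 days they summed to 29.3 to 71.8 CPM in control (median 37.5), 42.8 to 98.2 CPM in lithium (median 91.9) and 49.4 to 119 CPM in lithium-amiloride libraries (median 94.3), so that their medians, like those of *Osmr* and *Socs3*, were lower in control than in both treated groups. At 6 months they summed to 55.7 to 77.2 CPM in labelled lithium-amiloride (median 61.3), 62.6 to 101 CPM in labelled control (median 90.1) and 88.8 to 114 CPM in labelled lithium libraries (median 103). Labelled control was thus above labelled lithium-amiloride by its median, as for *Osmr* and *Socs3*, while labelled lithium was highest for the macrophage genes and had the lowest mean of *Osmr* and of *Socs3*. *S100a9*, the only neutrophil gene of 4 analysed, was at 0.412 to 5.45 CPM in all libraries used, and no marker gene was at 0 in every library of a group. Tubular injury genes were *Havcr1*, *Lcn2* and *Vcam1* (3 of 4). Their sum had medians of 33.1, 44.2 and 31.7 CPM in control, lithium and lithium-amiloride libraries at 14 days. At 28 days the medians were 46.8, 32.4 and 28.6 CPM, highest in control. Pericyte, fibroblast and smooth muscle genes (6 of 6) had medians in this order of 497, 568 and 452 CPM at 14 days. At 28 days these were 701, 524 and 470 CPM. For both sums control and lithium ranges overlapped at these times. At 14 days the injury sum was 35.3 to 61.7 CPM in lithium and 26.8 to 33.9 CPM in lithium-amiloride libraries, without overlap. At 6 months it was 38.6 to 76.5 in labelled control, 32.4 to 35.2 in labelled lithium and 46.6 to 51.8 CPM in labelled lithium-amiloride. The pericyte, fibroblast and smooth muscle sum was there 502 to 699, 324 to 383 and 463 to 618 CPM. Both sums set labelled control apart from labelled lithium, but not from labelled lithium-amiloride. The part of these cells and of injury in the levels of *Osmr* and *Socs3* was not tested.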

How the data were processed

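The authors prepared stranded poly(A) libraries, aligned reads with HISAT2 2.1.0 to Rnor 6.0 and made gene counts with featureCounts 2.0.0, as the submitters' processing notes name the tools. The deposited counts are raw counts, 1 table per time, and were used as deposited. The authors also deposited DESeq2 tables of genes that passed their test. Of these, the symbols were used, and the log2 fold changes and mean normalised signal by the authors served only to trace which libraries and which naming of the 6-month groups the tables rest on. Their fold changes and p-values are not given here.

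Counts were tested with edgeR 4.0.16 in R 4.3.3 (TMM scaling, filterByExpr, quasi-likelihood F test, 1 fit for the 3 groups of a time, and 1 fit over all times for differences between times), with Benjamini-Hochberg adjustment over all genes tested. A standard error is the log2 fold change divided by the square root of F. CPM were TMM-scaled, and log2 CPM used a prior count of 2. The covariation within groups was tested with 100000 two-sided permutations within groups, and ratios with exact permutations. Symbols were paired with 9237 of 32545 identifiers. Genes named besides *Osmr* and *Socs3* are fixed ligands, receptors, kinases and inhibitors of the pathway, up to 5 called targets per comparison with the smallest adjusted p, and the 5 genes most like each of the pair. A target counted in the list is not reported here by name. Other genes are mentioned as examples chosen after their values were seen. The pair and the lists were chosen with earlier results of these data known. Alternatives were DESeq2's size factors, the DESeq2 1.42.0 Wald test, no filter, only the groups compared, all deposited libraries, a replicate block, scaling without mitochondrial genes and leaving out each library. The scripts were tested on simulated data.

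Replicate numbers are shared between groups, but correlations of deviations between same-numbered libraries had medians of 0.03 at 14 days, -0.01 at 28 days and -0.08 at 6 months, so the numbers were not taken to pair samples.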

Additional observations from a re-analysis of the deposited data

Results flagged for a closer look

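Within groups of 4 to 10 libraries, *Osmr* in 28 days control 4 was low at 3.62 CPM and in 28 days lithium-amiloride 3 high at 12.5 CPM, each farther from the rest of its group than Dixon's 95% limit allows. These were 2 of 14 groups tested, and chance gives about 1 in 20.

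The lithium response of *Socs3* differed between 28 and 14 days by -1.74 on the log2 scale in the test of that difference (edgeR, adjusted p = 0.00386).

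With the 6-month labels as they stand, the lithium response differed from that at 14 days by -1.85 for *Osmr* and -4.02 for *Socs3*, and the response to added amiloride by 0.89 and 1.74. Under the other naming of the 6-month groups the same 4 differences were -0.57, -1.24, -0.05 and -0.22, and none passed the threshold in edgeR.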

How the results depend on the processing

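Of 200 values for *Osmr*, *Socs3*, their ratio and their covariation under the alternatives other than leaving out a library, 179 kept their direction and side of the threshold. For *Osmr* in labelled control against labelled lithium-amiloride at 6 months the call was lost with DESeq2's size factors (0.54), with all deposited libraries (0.88), under the replicate block (0.44) and without mitochondrial genes (0.55), and in labelled lithium against labelled control with only those groups (-0.76), all deposited libraries (-0.75) and the block (-0.65). With only the compared groups, lithium against control at 28 days was not called for *Osmr* (0.56) or *Socs3* (0.71). With all deposited libraries *Osmr* turned to 0.13 in labelled lithium against labelled lithium-amiloride and fell short for added amiloride, 6 months by labels minus 14 days (0.59). With 0.5 added, the 14-day ratio difference was 1.27. The covariation passed its threshold at 28 days without the 2 farthest libraries (0.53) and at 6 months with all libraries (0.71).

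Under the replicate block, lithium against control at 28 days was not called for *Osmr* (0.55, adjusted p = 0.0747) or *Socs3* (0.71, adjusted p = 0.0513), nor was *Socs3* at 6 months in labelled control against labelled lithium-amiloride (0.98) and labelled lithium against labelled control (-1.33). For added amiloride, 6 months minus 14 days, the block gave 0.051 for *Osmr* and 0.038 for *Socs3* by the tables' naming, the reverse sign, and 0.90 for *Osmr* by the labels. The cause of these changes was not tested.

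With 1 library left out, lithium against control at 28 days ranged from 0.44 to 0.62 for *Osmr* and 0.59 to 0.86 for *Socs3*, and lithium-amiloride against control from 0.34 to 0.54 (*Osmr*, 14 days), 0.86 to 1.26 (*Socs3*, 14 days) and 0.34 to 0.56 (*Osmr*, 28 days). Labelled control against labelled lithium-amiloride ranged from 0.43 to 0.68 for *Osmr* and 0.98 to 1.38 for *Socs3*, and labelled lithium against labelled control from -0.92 to -0.61 and -1.75 to -1.36. Added amiloride at 28 days ranged from -0.22 to 0.052 for *Osmr*, turning without lithium 4 or lithium-amiloride 1. The lithium response of *Osmr*, 28 minus 14 days, ranged from -0.67 to -0.49. The response to added amiloride, 6 months minus 14 days, ranged by the tables' naming from -0.23 to 0.085 for *Osmr* and -0.38 to 0.014 for *Socs3*, and by the labels from 0.78 to 1.09 for *Osmr*. The ratio difference ranged from 1.17 to 1.46 (lithium against control, 14 days), -0.47 to -0.29 (lithium-amiloride against lithium, 28 days) and -0.45 to 0.042 (labelled lithium against labelled lithium-amiloride). *Lifr* at 14 days ranged from -0.0023, without control 4, to 0.21.

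Depth limits *Socs3*, with 11 to 30 reads in control libraries of the short studies.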
